A study of Mus musculus with 400 samples.

Results

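The respiratory chain of the inner mitochondrial membrane passes electrons from NADH and succinate to oxygen through complexes I to IV, and complex V, the ATP synthase, uses the resulting proton gradient to make ATP. A small set of the subunits is encoded by the mitochondrial genome, and the others, described here, are encoded in the nucleus. In the small intestine, stem cells that divide at the base of the crypts carry Lgr5, a receptor that enhances Wnt signalling, and mitochondrial metabolism is known to matter for their growth and differentiation.

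The genes were chosen by symbol alone: the Nduf genes of complex I, Sdha to Sdhd of complex II, the Uqcr genes and Cyc1 of complex III, the Cox4i to Cox8 genes of complex IV and the Atp5 genes of complex V. Rows annotated as "-ps" were left out. This gave 88 of the 33496 genes in the table, with 40 in complex I, 4 in complex II, 9 in complex III, 18 in complex IV and 17 in complex V. Of these, 84 were annotated as protein-coding and 4 as processed pseudogenes. As background, some genes named after one complex have other roles: the Ndufa4 protein was later assigned to complex IV, and Cox7a2l encodes a factor that joins complexes.

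The series measured mRNA in 400 single cells of 1 population, sorted by flow cytometry as Lgr5-high from crypts of the duodenum and jejunum of mice. All cells came from Lgr5 GFP/+ mice, in which the Lgr5 locus drives EGFP and a tamoxifen-inducible Cre (Lgr5::EGFP-IRES-Cre-ERT2), so 1 Lgr5 allele carries the insert in every cell. The labels describe mice matched for age and sex, with crypts pooled per mouse, and name no animal for a cell. The population was therefore 1 sample, cells were not treated as replicates, and no p-value was computed. The spread given below is the SD over 10 library sets of 40 cells, a split read from the sample titles. The titles do not say whether a set is a chip, a sort or an animal, and all 40 barcode numbers recur in every set.

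After 20 cells with totals of 4491 to 9841 counts were left out, 380 cells remained, with 10766 to 70133 counts (median 32112) and 4661 to 16082 genes each. The sort label was set against listed markers. Of 12 stem cell genes, 9 had a count in at least 90% of cells. Lgr5 and Olfm4 had one in 97.9%, Smoc2 in 100% and Tnfrsf19, the lowest, in 63.4%. Of 8 epithelial genes, 7 reached 90%, with Epcam in 100% and Cdx2 lowest at 33.7%. Paneth cell genes were present too, with 4 of 9 listed genes counted in at least 90% of cells. So were 5 of 18 enterocyte genes and 1 of 8 goblet cell genes, Spink4. No enteroendocrine or tuft cell gene reached that share, though Pou2f3 of the tuft list had a count in 85.5% of cells. No immune, stromal or endothelial marker reached that share, and their 19 genes had counts in 0.263% to 44.5% of cells. The part of free RNA in such low shares was not tested. Counts of a gene in a cell reached at most 36 in the whole table and 29 among the respiratory chain genes. Whether a ceiling near this maximum exists was not tested. Ratios with counts mapped back from an assumed ceiling are given in the last section.

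Nearly all respiratory chain genes were counted in nearly all cells. A count was found in every cell for 33 of the 88 genes, and in at least 90% of cells for 73, against 1748 of all 33496 genes (5.22%). Another 12 were counted in 10% to 90% of cells, and 3 in fewer. Each cell was then thinned at random to 19169 counts, which left out 38 shallower cells, and 70 genes were still counted in at least 90% of cells. The nuclear genes together took 25950 CPM (the count of a gene scaled to the total of its cell). The lowest library set had 24798 CPM, the median set 25345 CPM and the highest 28473 CPM.

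Complex I had the largest summed level, 10291 CPM over its 40 genes, with 9721 CPM in the lowest set, 10079 CPM at the median and 11380 CPM in the highest set. Complex V had 6351 CPM, with sets from 6081 to 6866 CPM around a median of 6252 CPM. Complex IV had 4960 CPM, with sets from 4711 to 5413 CPM, and complex III had 3354 CPM, with sets from 3232.5 to 3706 CPM. Complex II, which also serves the citric acid cycle and has 4 subunits, had 993 CPM, with sets from 891 to 1152 CPM. The order of the complexes was the same in all 10 sets, and the ranges of the 5 complexes over sets did not overlap. These sums follow the number of genes in each complex as well as their levels.

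**Figure D1:**
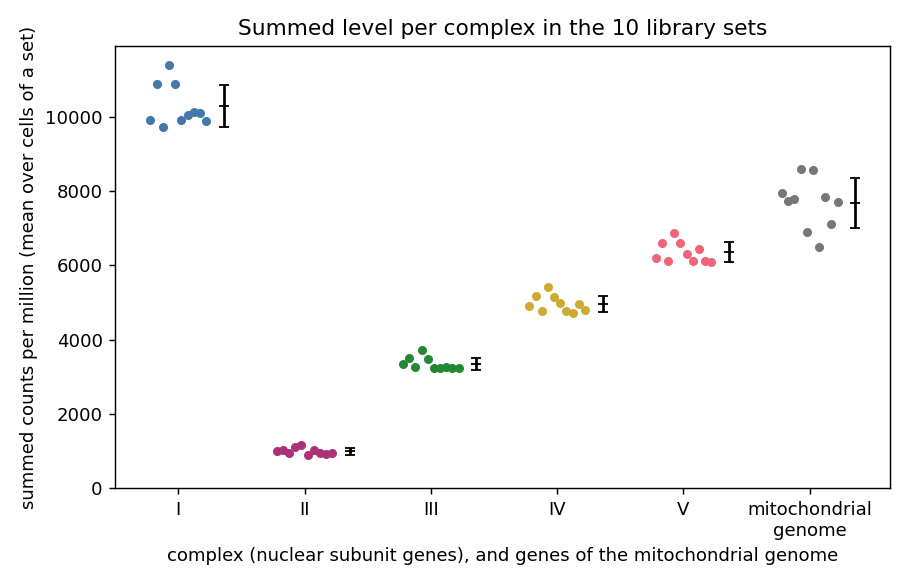
Summed CPM of the nuclear genes of each complex, and of the 13 protein genes of the mitochondrial genome, in the 10 library sets (points, in set order from 1 to 10); the bar at the right of each column is the mean and SD over sets. The fourth point, library set 4, is the highest for complexes I, III, IV and V at 11380, 3706, 5413 and 6866 CPM.

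Library set 4 was the highest set for complexes I, III, IV and V and held the highest value of 35 of the 73 widely counted genes. It also had the lowest median total, 29070 counts, and the highest sum for the genes of the mitochondrial genome, 8587 CPM. Set 5 was highest for complex II. The part of depth in these differences was not tested. Over the 73 genes, the SD over sets had a median of 7.83% of a gene's mean, with a range of 3.92% to 18.2%. Without any 1 set, complex I stayed between 10166.5 and 10356 CPM.

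**Figure D2:**
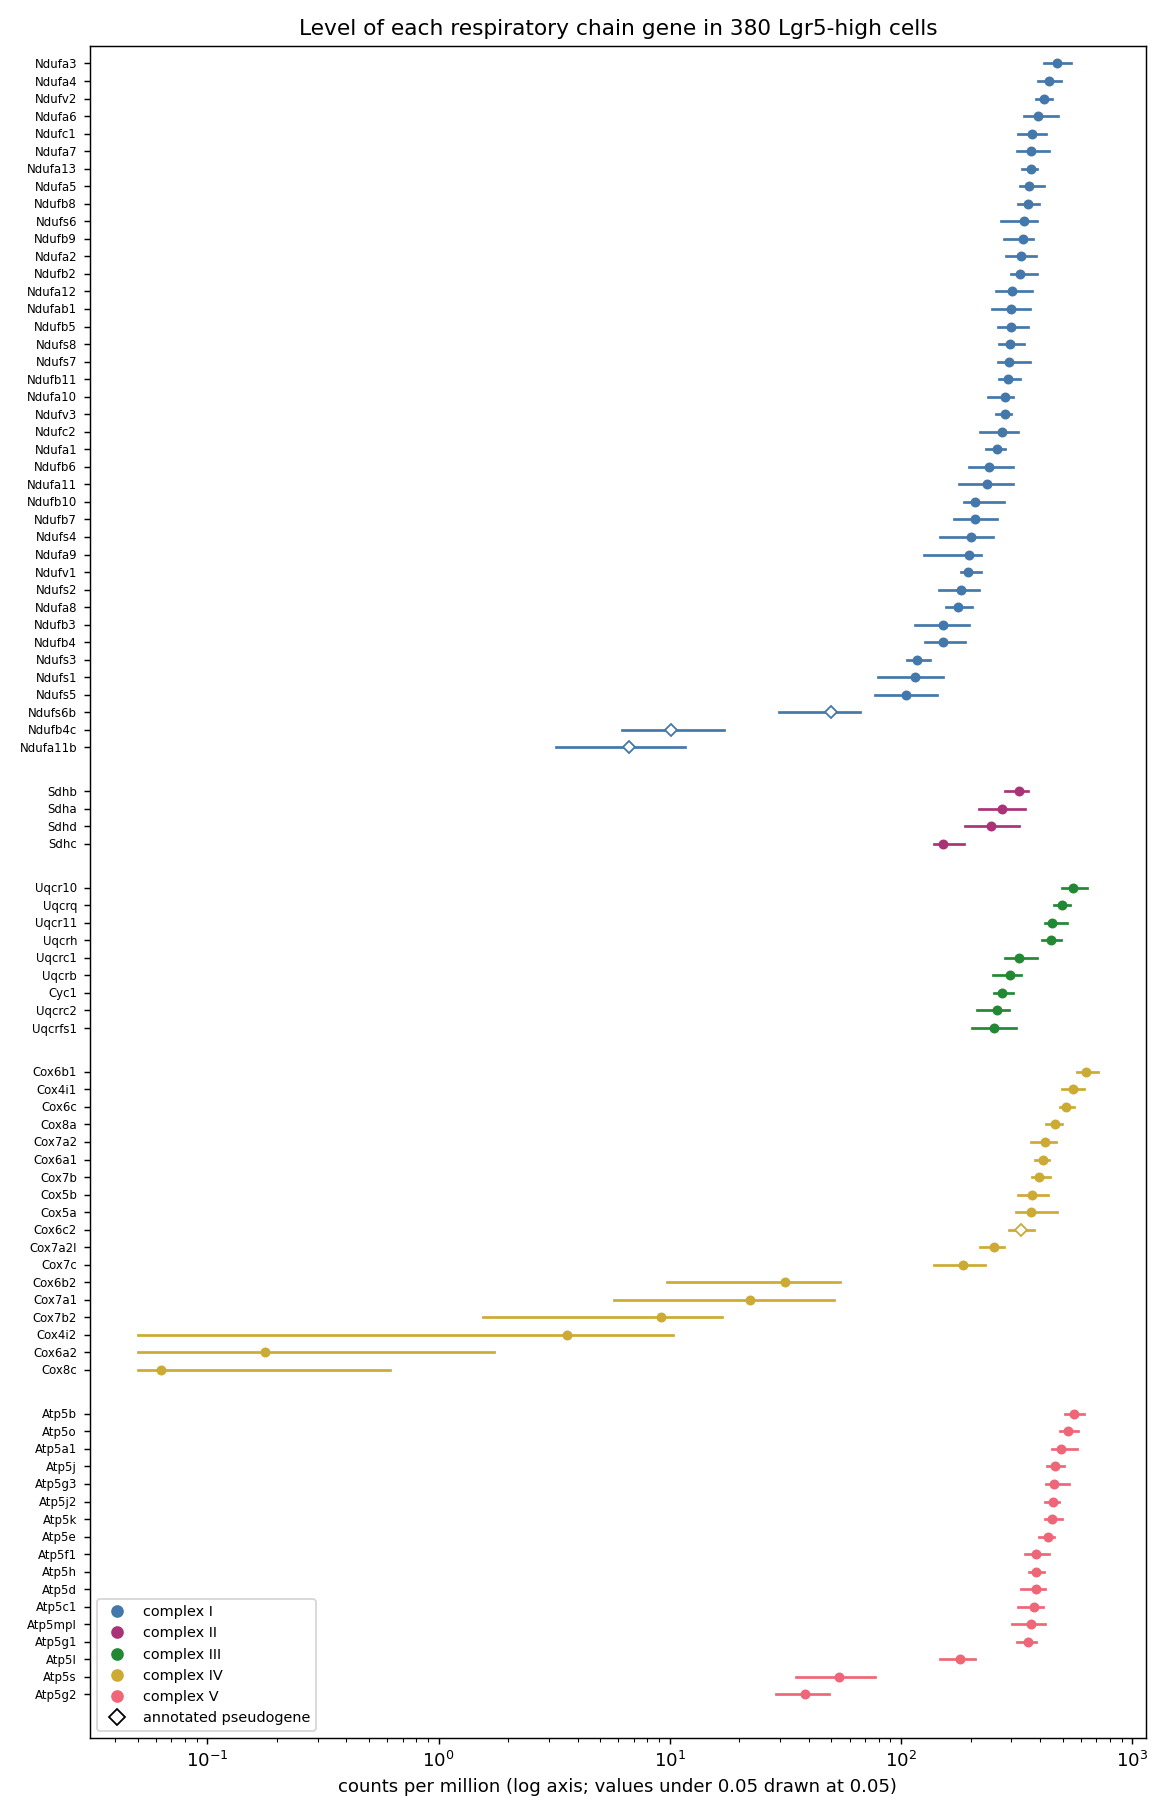
Mean CPM of each of the 88 genes over 380 cells on a log axis, by complex; lines run from the lowest to the highest of 10 library sets, and open diamonds are annotated pseudogenes. Cox6b1 is highest at 634 CPM, and the forms of complex IV subunits known from other tissues lie far below it.

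Within complex I, the 7 core subunits carry the flavin and the iron-sulphur clusters that move electrons, and they lay below the accessory subunits per length of gene. Their median level was 78.7 CPM per kb of annotated exon, against 202.4 CPM per kb for the 30 accessory subunit genes. Ndufs1, which holds iron-sulphur clusters of the NADH-oxidizing arm, had the lowest level per kb of the complex I genes counted in at least 10% of cells, 14.2 ± 2.48 CPM per kb (SD over 10 sets). Its annotated exons span 8086 bases, and its level was 79.6 CPM in the lowest set, 120 CPM at the median and 151.8 CPM in the highest. The accessory genes Ndufa1, Ndufa2 and Ndufa3 led the complex with 620 ± 36.8, 579 ± 53.9 and 462 ± 38.6 CPM per kb. Exon length here is the union over all annotated transcripts, which makes long genes with unused exons look low. Whether counts rise with exon length in these libraries was not tested. The orders per kb, here and in the other complexes, depend on this division by length. In CPM the medians were 194.9 for the core and 293.9 for the accessory subunits.

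In complex II the membrane anchor gene Sdhd had 199.5 ± 32.1 CPM per kb. Sdhb, the iron-sulphur subunit, had 144.6 ± 11.3 CPM per kb, and Sdha, the flavoprotein that oxidizes succinate, had 66.04 ± 8.75 CPM per kb. Sdhc, the other anchor, was lowest at 46.6 ± 4.47 CPM per kb. Per kb, Sdhd thus stood above Sdhc and Sdha by more than their spread over sets. In CPM the order differed, with 323.8 for Sdhb, 272.5 for Sdha, 245.6 for Sdhd and 151.3 for Sdhc.

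In complex III the small subunits came first, with 949 ± 75.5 CPM per kb for Uqcr10, 701 ± 48.3 for Uqcr11 and 361.8 ± 21.6 for Uqcrh. Uqcrc1 and Uqcrc2, the large core proteins on the matrix side, were last with 78.2 ± 7.21 and 102.4 ± 9.18 CPM per kb. The redox subunits, cytochrome c1 (Cyc1) and the Rieske protein (Uqcrfs1), had a median of 156.04 CPM per kb. In CPM the medians were 449.4 for the small subunits, 292.2 for the core proteins and 263.1 for the redox subunits.

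Most parts of the ATP synthase had similar medians. The 5 genes of the catalytic head had a median of 196.2 CPM per kb, the 4 of the peripheral stalk 204.4 and the 4 small membrane subunits 218.4. Atp5k, a small membrane subunit, was highest with 731 ± 44.4 CPM per kb. Atp5s, which encodes a coupling factor, and Atp5g2 were lowest, with 26.5 ± 7.05 and 22.9 ± 3.86 CPM per kb. In CPM, Atp5b, the catalytic beta subunit, stood second among all 88 genes, with 509.98 CPM in the lowest set, 559.6 CPM at the median and 621 CPM in the highest.

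Several complex IV subunits exist in forms that differ between tissues, and these cells held the common form almost alone. Cox4i1, the common form of subunit 4, took 99.3% of the summed Cox4i counts, and the lung form Cox4i2 took 0.667% (95% exact binomial interval 0.483% to 0.898%). The 43 Cox4i2 counts lay in 33 cells. Cox6a1 took 99.96% against 2 counts of the heart and muscle form Cox6a2. Cox8a took 99.98% against 1 count of the testis form Cox8c. These intervals cover counting error only. Cox6a2 and Cox8c were thus counted in 0.526% and 0.263% of cells, within the range of the immune markers that the sort should leave out.

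Other minor forms were counted more often. Cox6b2, the testis form of subunit 6b, held 5.11% of the counts against 94.9% for Cox6b1, and Cox7b2 held 2.14% against 97.9% for Cox7b. Cox7a1, the heart and muscle form of subunit 7a, held 3.56%, beside 59.7% for Cox7a2 and 36.7% for Cox7a2l. The Cox7a1 level was 5.72 CPM in the lowest set, 19.9 CPM at the median and 51.2 CPM in the highest. Cox6b2 spread in a similar way, with 9.71, 27.7 and 54.3 CPM.

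The counts of Cox7a1 and Cox6b2 were spread unevenly over cells. Cox7a1 had a count in 30.5% of cells and 5 or more in 22 cells from 9 library sets, and the 38 cells with most counts held 70.7% of them. Cox6b2 had a count in 40.5% of cells and 5 or more in 30 cells from all 10 sets. Both were counted in 40 cells. Thus 34.5% of the cells with Cox7a1 also had Cox6b2, against 40.5% of all cells, and 26% of the cells with Cox6b2 also had Cox7a1, against 30.5% of all cells. Atp5s followed the same pattern, with a count in 56.6% of cells and 50 cells at 5 or more counts. The share held by the top 38 cells also depends on how sparse a gene is. Cox7b2, a sparser minor form, had 71.8% in its top 38 cells but only 1 cell at 5 or more counts.

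The c ring of the ATP synthase is built from a single mature protein that 3 genes encode with different import sequences. Atp5g3 gave 52.7% of their counts, Atp5g1 gave 42.5% and Atp5g2 gave 4.88%. The set SDs of these shares were 0.715, 1.08 and 0.741 percentage points, so Atp5g3 was above Atp5g1 by more than the spread over sets. Their coding sequences were 70.8% to 72.1% identical in pairs.

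The 4 annotated pseudogenes were much closer to their parent genes. Ndufb4c matched the coding sequence of Ndufb4 at all 390 bases, Ndufs6b matched Ndufs6 at 96.5% and Ndufa11b matched Ndufa11 at 94.8%. Cox6c2 was 96.97% identical to Cox6c, with 7 differing bases, and it took 40.3% of their joint counts against 59.7% for Cox6c. Its level was 331.01 CPM. The sequences are shown because within this coding stretch the 2 differ at 7 bases only, and exons of Cox6c outside it were not compared. Both are from GENCODE M21 on GRCm38, 5′ to 3′ on the coding strand, with the differing bases in capitals. Cox6c2 lies at chr12:56373593-56373823 on the minus strand, and the Cox6c gene spans chr15:35925886-35938246 on the minus strand.
Cox6c2: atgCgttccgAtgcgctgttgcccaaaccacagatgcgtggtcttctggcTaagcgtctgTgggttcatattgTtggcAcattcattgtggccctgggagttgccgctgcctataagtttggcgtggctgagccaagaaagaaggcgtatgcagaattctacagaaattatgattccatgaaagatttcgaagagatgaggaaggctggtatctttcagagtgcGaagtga
Cox6c: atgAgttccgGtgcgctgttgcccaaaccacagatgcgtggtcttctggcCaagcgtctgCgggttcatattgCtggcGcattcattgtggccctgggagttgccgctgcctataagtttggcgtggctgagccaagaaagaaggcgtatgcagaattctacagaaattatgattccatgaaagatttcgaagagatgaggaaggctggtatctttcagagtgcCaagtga

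The thinned counts of Cox6c2 and Cox6c had a correlation of 0.57 over the thinned cells, and those of Ndufs6b and Ndufs6 one of 0.31. It was 0.23 for Ndufb4c and Ndufb4, the pair with identical coding stretches, and 0.22 for Ndufa11b and Ndufa11. The tissue forms of complex IV had between -0.04 and 0.08 with their common partners. How the authors assigned reads that fit both copies is not stated in the labels, so the levels of these pairs are uncertain. Exons of 29 of the 88 genes also overlap exons of another gene, most often on the opposite strand, as for Atp5j with Gabpa and Ndufs6 with Mrpl36. The use of strand is not stated, so reads of such pairs may be joined. The 7 rows left out as "-ps" summed to 258.25 CPM.

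The variance of thinned counts divided by their mean, which is near 1 for pure counting noise, was 0.82 for Atp5o and Atp5j2, 0.83 for Atp5j, 0.86 for Cox6c and 0.87 for Ndufv2. Values under 1 are below counting noise, so these ratios are no measure of how stable the genes were. Summed over all 88 genes the ratio was 15.8. For single genes it was highest for Cox7a1 (2.69), Cox6b2 (2.55), Atp5s (2.10), Ndufb4 (1.92) and Ndufs5 (1.88). Ndufb4 and Ndufs5, both accessory complex I genes, reached counts of 16 and 15, yet 58 and 82 cells had none. For 43 respiratory chain genes with thinned means of 4.00 to 7.63, the median ratio was 1.19, against 1.32 for 552 other nuclear genes in that range. The median thinned means were 6.04 and 5.04. The 2 groups were thus not matched in mean within the range, and the gap is not read as a difference.

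The sums of the complexes varied together from cell to cell. In thinned counts over the cells of 1 sample, summed complex I had a Pearson correlation of 0.81 with complex V, 0.79 with complex IV and 0.76 with complex III. Complex II, with fewer genes and counts, had 0.47 to 0.52 with the others. Each of these was positive in all 10 library sets. The sum of all respiratory chain genes also had 0.84 with cytosolic ribosomal protein genes and 0.81 with mitochondrial ribosomal protein genes, and 0.61 with citric acid cycle genes.

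The same sum had a correlation of -0.83 with the number of genes counted in the cell after thinning. Cells whose counts spread over more genes thus had a lower sum in every set. With library set and this number held fixed, complex I had 0.50 with complex V, 0.49 with complex IV and 0.45 with complex III. Complex II had 0.14 to 0.20 with the others. The correlation was then 0.48 with cytosolic and 0.54 with mitochondrial ribosomal protein genes, and 0.20 with citric acid cycle genes. Cells share library, depth and total in these values, which are descriptions with no test.

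**Figure D3:**
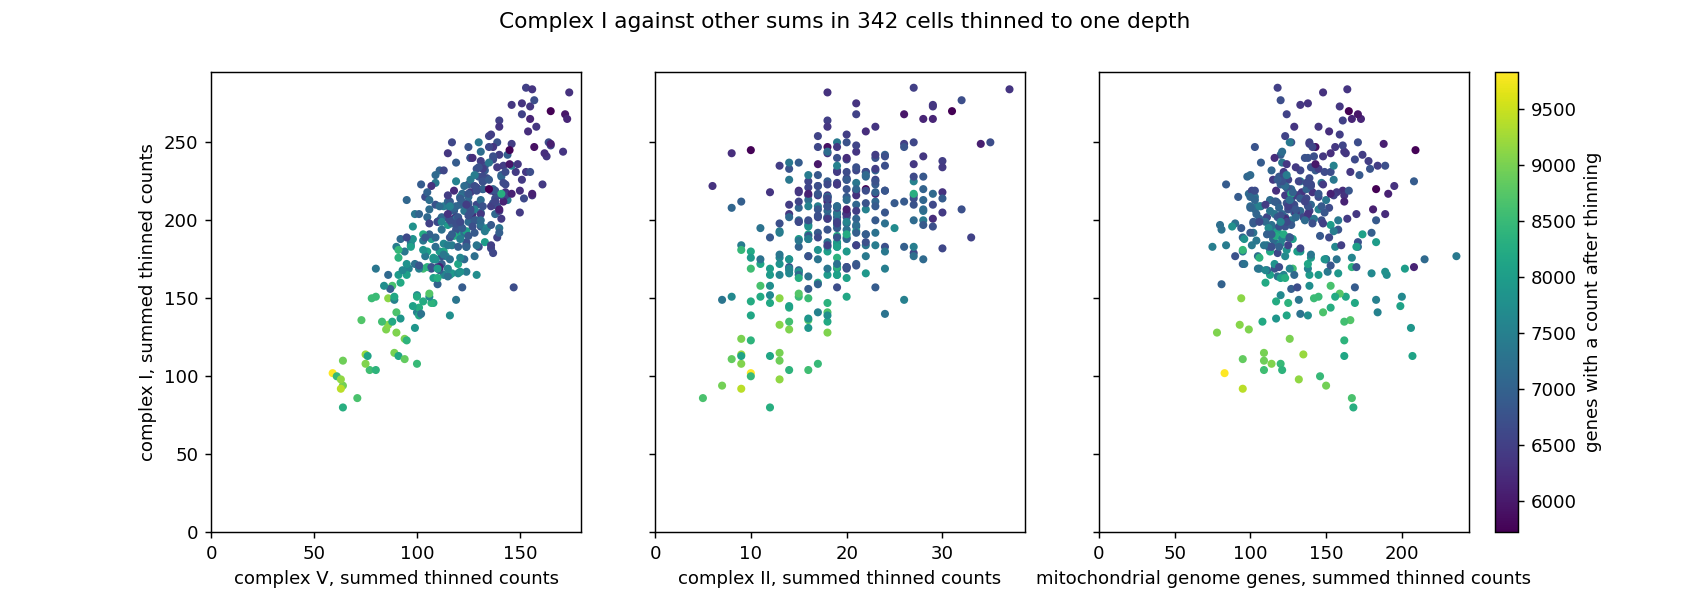
Summed thinned counts of complex I in each thinned cell (vertical axis) against complex V, complex II and the mitochondrial genome's protein genes (horizontal axes); colour is the number of genes counted after thinning. Complex V follows complex I closely (r = 0.81), complex II less so (r = 0.52), the mitochondrial genome hardly at all (r = 0.07), and cells with many genes lie low.

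Messages of the mitochondrial genome, which encode partner subunits of complexes I, III, IV and V, had weaker correlations with the nuclear genes than the complexes had with each other. The 13 mitochondrial genes summed to 7665 CPM, with sets from 6501 to 8587 CPM. Their thinned sum had a correlation of 0.13 with all nuclear respiratory chain genes and of -0.02 with set and gene number held fixed. By complex, the correlation was 0.07 for complex I, -0.01 for complex II, 0.17 for complex III, 0.12 for complex IV and 0.21 for complex V. The value for complex V was positive in 9 of 10 sets, and it was 0.13 with set and gene number held fixed. The mitochondrial sum moved with depth: even after thinning it had a correlation of -0.86 with the log10 total of the cell before thinning, negative in all 10 sets. With set and depth held fixed, it had -0.15 with all nuclear respiratory chain genes and -0.17 with complex V. The mean count was 28.8 for mt-Cytb and 27.7 for mt-Nd4, close to the maximum of 36 in the table.

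By the likeness of their thinned counts to the summed respiratory chain genes over the thinned cells, the nearest of 7402 other genes were Ubb (r = 0.66), which encodes ubiquitin, Rpl28-ps1 (0.62), Gm26377 (0.61), Gm12338, Gm6436, Rpl14-ps1, Gm6204 and the ribosomal protein gene Rps4x (0.59). Of the 8, 5 were annotated as processed pseudogenes. The median over all candidates was 0.05. The most opposite were C230088H06Rik (-0.63), Cpne4 (-0.62), Gm28376, Macrod2 and Ank1 (-0.61).

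Mex3a, the gene in the title of the series, codes for a protein that binds RNA and is given there as a mark of Lgr5+ cells that divide slowly. The 31 cells with a Mex3a count after thinning, 9.06% of cells, were set against the other cells. The summed level of the respiratory chain genes had a median over cells of 25911 CPM with Mex3a, within 17820 to 34674 CPM, and of 26216 CPM without, within 11096 to 36745 CPM. All cells with Mex3a lay within the range of the cells without.

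By gene, the median log2 ratio (mean CPM + 1, with over without Mex3a) was 0.02 over the 85 genes counted in at least 10% of cells. Its SD over 6 library sets was 0.12. Above 0 were 53 of the 85 genes, against 7930 of all 17216 genes. Leaving out 1 library set gave a median of -0.02 to 0.08. By complex it was 0.03 for I, -0.04 for II, 0.00 for III, 0.06 for IV and 0.02 for V. Past 1.2-fold, 4 of 85 were higher and 1 was lower, while 19.9% of all 17216 genes were higher and 29.4% lower. The 4 were Ndufb4c (0.52), Cox7b2 (0.38), Ndufb4 (0.30) and Cox6b2 (0.28), and the lower 1 was Cox7a1 (-0.75). None of these 5 exceeded its own SD over sets. Ndufb4 had a median of 185.2 CPM in cells with Mex3a, within 0 to 414 CPM, and of 145.6 CPM in cells without, within 0 to 579 CPM.

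Of the 5 splits, the median ratio was largest along a cell cycle score, the mean thinned level of S phase genes plus that of G2 and M phase genes. Cells were ranked into tertiles. The members' summed level had a median of 23676 CPM in the low tertile, 26565 CPM in the middle and 26764 CPM in the high tertile, with means of 23763, 26519 and 26785 CPM. The ranges over cells, 17707 to 36674 CPM in the high and 11096 to 35957 CPM in the low tertile, overlapped widely.

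The median log2 ratio of high over low tertile was 0.20, with an SD over 10 sets of 0.17 and 8 of 10 sets positive. Above 0 were 82 of 85 genes, against 8170 of all 17124 genes. The complexes varied together from cell to cell, so the 85 genes are not separate observations. The median ratio was 0.28 for complex II, 0.22 for complexes I and III, 0.18 for complex IV and 0.14 for complex V. All genes of complexes I, II, III and V were above 0. Past 1.2-fold, 25 of 85 (29.4%) were higher and 1 was lower, against 28.5% higher and 40% lower among all 17124 genes. The share of higher genes was thus near that of all genes.

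Of the 25, 15 belonged to complex I, 2 to complex II, 2 to complex III, 4 to complex IV and 2 to complex V. The pseudogene Ndufs6b had the highest ratio, with a mean of 64.8 CPM in the high and 40.1 CPM in the low tertile (0.68, set SD 0.60, higher in 8 of 10 sets). Ndufb3, an accessory subunit of complex I, had 172.4 CPM in the high and 122.8 CPM in the low tertile (0.49, set SD 0.36, higher in 10 of 10 sets). Uqcrc2 had 299.7 CPM in the high tertile and 222.5 CPM in the low (0.43, higher in 9 of 10 sets). Ndufab1, the mitochondrial acyl carrier protein, had 339.2 CPM in the high and 255.4 CPM in the low tertile (0.41, higher in 9 of 10 sets). Of all 85 genes, 14 exceeded their own SD over sets, a share close to the 16.5% of all genes tested that did.

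Genes past 1.2-fold were found in the other complexes too. Sdhc, a membrane anchor of complex II, had 129.99 CPM in the low, 157.6 CPM in the middle and 171.7 CPM in the high tertile (0.40, set SD 0.36, higher in 9 of 10 sets). Cyc1, cytochrome c1 of complex III, had 242.8, 270.6 and 306.7 CPM in the same order (0.34, set SD 0.29). Cox7a2l had 208.9, 256.6 and 285.5 CPM (0.45, set SD 0.34, higher in 8 of 10 sets). Atp5l of complex V had 167.6, 188.9 and 224.2 CPM (0.42, set SD 0.33). In these 4 genes, picked from those past 1.2-fold, the middle tertile lay between the others. The sum of complex IV did not follow this order, with means of 4550, 5095 and 5046 CPM from low to high. The sums of the other complexes did, though complex V had 6417 CPM in the middle and 6426 CPM in the high tertile. By role, the core proteins of complex III had a median log2 ratio of 0.33 and its small subunits 0.07, and the catalytic head of the ATP synthase had 0.11.

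Cox4i1 and Cox6b1, both among the most abundant genes, differed by less than their spread over sets. Cox4i1 had 517 CPM in the high and 525 CPM in the low tertile, and Cox6b1 had 596 and 606 CPM. Genes with a mean of at least 10 counts had a median log2 ratio of 0.12, against 0.07 for all genes of that level. Those of 5 to 10 counts had 0.29, against 0.23 for all genes of that level. The 12 genes under 5 counts had 0.28, against -0.09 for all genes under 5 counts. That last class holds every such gene counted in at least 10% of cells. It was not matched in mean, so the gap is not read as a difference.

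**Figure D4:**
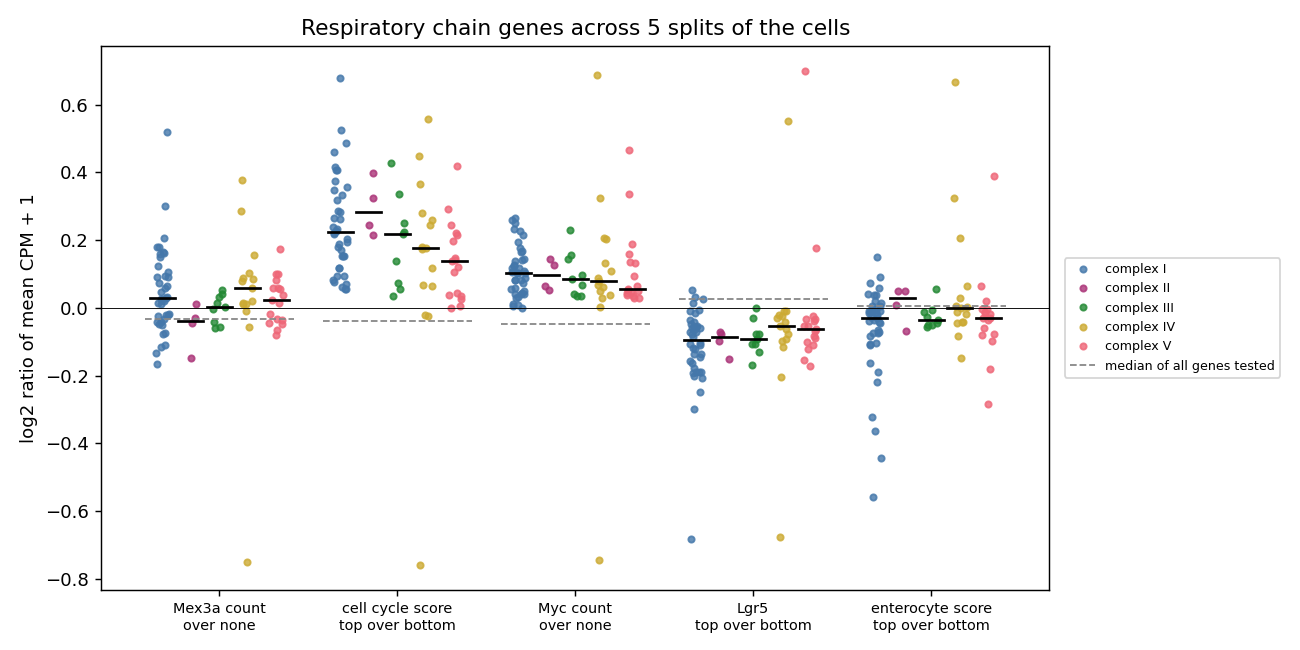
Log2 ratio of mean CPM + 1 for each of the 85 genes counted in at least 10% of cells, across 5 splits of the cells and coloured by complex; black bars are medians per complex and dashed lines the median of all genes tested. For the cell cycle score the complexes lie at 0.14 to 0.28 and the dashed line at -0.04, and for Mex3a all lie near 0.

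Other gene groups of the pathway were set against the same score. The mitochondrial ribosomal protein genes had a median log2 ratio of 0.34 (77 of 78 above 0, 52 past 1.2-fold). Citric acid cycle genes had 0.22, with 7 of 16 past 1.2-fold higher and 1 lower. The assembly factors, which build the complexes, had 0.26, with 23 of 47 higher and 5 lower. Cytosolic ribosomal protein genes had 0.10. The genes of the mitochondrial genome went the other way, with -0.22 and 11 of 13 below 0. Their summed level had a median of 6279 CPM in the high tertile and of 7463 CPM in the low, and the median log2 ratio was negative in all 10 sets. The SDs over sets were 0.22 for mitochondrial ribosomal protein genes, 0.19 for citric acid cycle genes and 0.17 for assembly factors. They were 0.14 for cytosolic ribosomal protein genes and 0.08 for the mitochondrial genome. Past 1.2-fold, 28.5% of all genes were higher and 40% lower.

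Among 15 regulators of respiratory chain genes and of mitochondrial DNA, 7 were higher past 1.2-fold in the high tertile. These were Gabpa (0.76), Polrmt (0.66), Polg (0.61), Gabpb1 (0.47), Esrra (0.46), Tfb1m (0.45) and Tfb2m (0.30). Gabpa and Gabpb1 encode the subunits of an ETS factor that binds promoters of respiratory chain genes, and exons of Gabpa overlap Atp5j on the opposite strand. Polrmt and Polg encode the polymerases of the mitochondrial genome. Lower were Ppargc1a (-0.60), a coactivator of mitochondrial gene expression, with 37.9 CPM in the high and 57.8 CPM in the low tertile, and Nrf1 (-0.36), with 80.8 and 104.1 CPM. Each of these 9 ratios was smaller than its own SD over sets, which was 1.36 for Gabpa, 1.15 for Polrmt, 0.80 for Polg and 1.46 for Ppargc1a. The median over the 15 regulators was 0.25, with an SD over sets of 0.39 and a positive value in 7 of 10 sets. The shares called are also read against 28.5% and 40% of all genes.

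Depth and gene number moved with the cell cycle score. The high tertile had a median total of 37761 counts, against 30029.5 in the low tertile. Ranked within tertiles of total counts, the members' median log2 ratio was 0.24, and that of the mitochondrial genome was -0.02. Ranked within tertiles of the number of genes counted after thinning, the members had 0.08 with 58 of 85 above 0, and the mitochondrial genome had -0.17. The respiratory chain difference was therefore smaller among cells of like gene number, and the mitochondrial genome difference was smaller among cells of like depth.

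Cells with a count of Myc, a transcription factor that promotes growth, after thinning made up 53.5% of cells and were set against the other cells. The summed level had a median of 26751 CPM with Myc, within 11936 to 36745 CPM, and of 25222 CPM without, within 11096 to 36745 CPM. The median log2 ratio was 0.09, with an SD over sets of 0.05 and a positive value in 9 of 10 sets. Above 0 were 83 of 85 genes, against 7735 of all 17216 genes. Past 1.2-fold, 5 of 85 were higher and 1 lower, against 14.5% higher and 32.3% lower among all genes.

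The 5 were Cox6b2 (0.69), Atp5g2 (0.47), Atp5l (0.34), Cox7a1 (0.32) and Ndufs5 (0.26), and the lower 1 was Cox7b2 (-0.74). Atp5l, the g subunit of the ATP synthase, had a median of 223.4 CPM in cells with Myc and of 170.2 CPM in cells without. At 10 or more counts the median was 0.06, against 0.07 for all genes of that level, and at 5 to 10 counts it was 0.11, against 0.11. For the 12 genes under 5 counts it was 0.21, against -0.08 for all genes under 5 counts. That class is wide and was not matched in mean, so the gap is not read as a difference. Compared within tertiles of gene number, the median over the 85 genes was 0.02, with 54 above 0. Mitochondrial ribosomal protein genes had 0.16 and the mitochondrial genome -0.09.

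Along Lgr5 itself the shift was within the spread over sets. The summed level had a median of 27047 CPM in the low tertile of Lgr5, 26199 CPM in the middle and 25561 CPM in the high tertile. The median log2 ratio of high over low was -0.08, but the SD over sets was 0.12 and 4 of 10 sets were positive. Below 0 were 77 of 85 genes, against 8051 of all 17216 genes. At 10 or more counts the median was -0.06, against -0.03 for all genes of that level. At 5 to 10 counts it was -0.11, against -0.06. Under 5 counts, a class not matched in mean, it was -0.14, against 0.04. Ranked within tertiles of gene number, the median over the 85 genes was -0.02, with 28 above 0. Past 1.2-fold, Atp5s (0.70) and Cox6b2 (0.55) were higher, and Ndufb4c (-0.68), Cox7a1 (-0.68) and Ndufa11b (-0.30) were lower. Among all genes, 24.8% were higher and 16.6% lower.

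Along an enterocyte score, the mean thinned level of absorptive cell genes, the median log2 ratio of high over low tertile was -0.02, with an SD over 8 sets of 0.07. It was -0.092 in cells with at least 20000 counts, -0.10 in cells thinned to the 25th percentile of totals, and 0.0054 without library set 8. The summed level had a median of 26518 CPM in the low tertile, 26011 CPM in the middle and 26207 CPM in the high tertile. Past 1.2-fold, 3 of 85 were higher and 5 lower, against 20.4% higher and 18.5% lower among all genes. Ndufs3, a core subunit of complex I, had a mean of 108.1 CPM in the high tertile and 139.5 CPM in the low (-0.36, set SD 0.41).

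**Figure D5:**
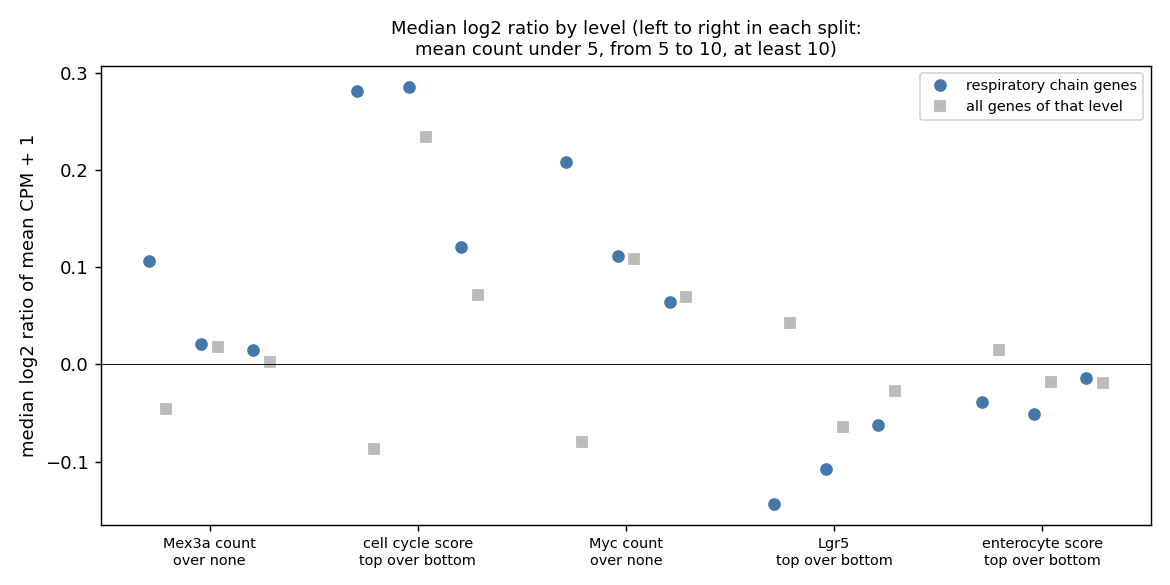
Median log2 ratio of mean CPM + 1 for the respiratory chain genes (circles) and all genes of the same class (squares), for each of 5 splits. The 3 classes of mean count are, left to right, under 5, from 5 to 10 and at least 10. The class under 5 is wide and was not matched in mean. For Myc the 2 symbols nearly meet above 5 counts (0.11 and 0.11, then 0.06 and 0.07), and for the cell cycle score the circles lie above the squares (0.29 and 0.23, then 0.12 and 0.07).

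Respiratory chain promoters are known for sites of a few factors, so their sequences were searched for exact letters. RefSeq promoters (GRCm38.p6, 250 bases before to 50 after the start) were found for 66 of the 88 genes, all protein-coding. The palindromic NRF1 motif, marked in the stretches below, was in 5 of 66 (7.58%), against 1.32% of 17491 promoters of the same length. The ETS motif CCGGAAG, on either strand, was in 15 (22.7%), against 11.9%. A YY1 motif, also marked below, on either strand, was in 4 (6.06%), against 1.27%. All 4 were complex I genes, which made up 33 of the 66 promoters. The motifs do not contain each other. The median GC content was 57.2% for the 66 promoters and 56.3% for all.

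The promoters with the NRF1 motif belonged to genes of 4 complexes, and 100-base stretches of them are shown because they hold it. Each is from RefSeq on GRCm38.p6, 5′ to 3′ on the gene's strand, with motif letters in capitals. They are Ndufa11 (chr17:56717702-56717801, plus), Uqcrc1 (chr9:108936598-108936697, plus), Cox6a1 (chr5:115349021-115349120, minus), Atp5k (chr5:108434350-108434449, minus) and Atp5g2 (chr15:102670998-102671097, minus). In Atp5k the second run of capitals is the ETS motif on the opposite strand.
Ndufa11: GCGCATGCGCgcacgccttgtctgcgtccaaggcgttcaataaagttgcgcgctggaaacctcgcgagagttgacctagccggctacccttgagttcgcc
Uqcrc1: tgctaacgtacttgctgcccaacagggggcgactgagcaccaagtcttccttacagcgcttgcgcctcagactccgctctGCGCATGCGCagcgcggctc
Cox6a1: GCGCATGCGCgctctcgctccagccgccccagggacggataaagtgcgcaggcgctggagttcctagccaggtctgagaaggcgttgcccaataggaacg
Atp5k: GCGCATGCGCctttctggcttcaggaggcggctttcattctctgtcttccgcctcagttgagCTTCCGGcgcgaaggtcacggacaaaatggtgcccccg
Atp5g2: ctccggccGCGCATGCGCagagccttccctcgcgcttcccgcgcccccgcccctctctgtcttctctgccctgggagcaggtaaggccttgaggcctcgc

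The levels of these 5 genes ranged from 38.3 CPM for Atp5g2 to 450 CPM for Atp5k, with Uqcrc1 at 323.2, Cox6a1 at 409.6 and Ndufa11 at 235.8 CPM. The YY1 motif was in Ndufs6 (chr13:73328433-73328532, minus), Ndufs7 (chr10:80249399-80249498, plus), Ndufa9 and Ndufs4. The stretches of the first 2 are from the same source, on the gene's strand, with the motif in capitals.
Ndufs6: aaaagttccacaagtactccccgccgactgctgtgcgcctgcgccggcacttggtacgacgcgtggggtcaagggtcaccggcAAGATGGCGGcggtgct
Ndufs7: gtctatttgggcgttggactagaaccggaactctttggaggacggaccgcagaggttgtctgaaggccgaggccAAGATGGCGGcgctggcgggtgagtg

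A match is a description of letters in a window and says nothing of binding in these cells. Of the genes of the factors, Nrf1 was counted in 83.9% of cells (95.7 CPM), Gabpa in 35.8% (27.1 CPM) and Yy1 in 80% (101.4 CPM).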

How the data were processed

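The deposited table held whole-number read counts per gene for 400 cells, not normalized. Per the labels' protocols, sorted cells were captured on a Fluidigm C1 HT chip and polyA RNA was amplified with a SMARTer kit. The aligner, the counting rule, the use of strand and of molecular identifiers were not stated in the labels; GRCm38.p4 is the genome build in the submitters' processing notes. Gene symbols were matched by gene identifier to GENCODE M21 (33219 of 33496 matched).

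Cells with under 10000 counts were left out (20 of 400). CPM used all gene counts. For variation and covariation, cells were thinned without replacement to 19169 counts, and 38 shallower cells were left out. The splits used the same cells. Their Mex3a, Myc, cell cycle and enterocyte classes were set on thinned counts, and the Lgr5 tertiles on unthinned CPM. All levels and ratios of the splits used unthinned CPM, so depth was not equalized in them. A log2 ratio compares mean CPM + 1 between classes of cells; a gene past 1.2-fold was called, among genes found in 10% of cells or more. All cells are 1 sample, so no test was made. The SD over 10 library sets covers the spread between sets, whose origin the titles do not give. The members and gene lists were chosen with earlier results of these data known. Named genes were the paralogue groups, members counted in under 10% of cells, the 3 highest and 2 lowest per kb in each complex, the 3 highest and 3 lowest in each split and the 5 most and 5 least variable; others named were chosen after their values were seen. The procedure was tested on simulated data. Python 3.11.15, numpy 2.4.6, scipy 1.17.1, pandas 2.3.3 and matplotlib 3.10.9 were used. Doublets were not called.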

Additional observations from a re-analysis of the deposited data

How the results depend on the processing

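No paired analysis was possible because the cells form 1 group. With CPM computed from genes with a mean count under 15, the summed level was 11068 CPM for complex I, 3609.5 for III, 5338 for IV and 6834 for V. With counts mapped back from an assumed ceiling just above the highest count it was 10852, 3719.7, 5640.1 and 7142 CPM. The first choice divides by a smaller total, so every level rises. Whether such a ceiling exists was not tested. With the mapped counts, the members' median log2 ratio was 0.25 for the cell cycle score and 0.11 for Myc, against 0.20 and 0.09 as reported. It was 0.03 for Mex3a, -0.09 for Lgr5 and -0.03 for the enterocyte score, against 0.02, -0.08 and -0.02. Leaving out 1 library set gave 10166.5 to 10356 CPM for complex I, 975 to 1004 for II, 3314 to 3367 for III, 4909 to 4987 for IV and 6292 to 6380.4 for V. The enterocyte log2 ratio was -0.092 in cells with at least 20000 counts and -0.10 when thinned to the 25th percentile of totals. The Myc ratio was 0.019 within tertiles of genes counted after thinning. Leaving out 1 set gave -0.02 to 0.08 for Mex3a, 0.13 to 0.22 for the cell cycle score, -0.11 to -0.04 for Lgr5, -0.08 to 0.01 for the enterocyte score and 0.06 to 0.11 for Myc. The splits within tertiles of total counts or gene number were chosen after seeing the data. The cell cycle ratio stayed above 0 in all 39 alternatives run, and the Lgr5 ratio below 0 in all 19. These alternatives reuse largely the same cells, so a constant sign is no independent support. The lowest cell cycle value was 0.08, within tertiles of gene number. By library set, the cell cycle ratio was positive in 8 of 10 sets and the Lgr5 ratio in 4 of 10. Counting error is largest for the genes under 5 counts.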
